A study of Homo sapiens with 18 samples.

Results

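The phagocyte NADPH oxidase genes described here were CYBB, CYBA, NCF1, NCF4 and RAC2. They were chosen by name as subunits of this enzyme, and each was matched by its gene symbol. All 5 were listed in both cell lines and all 5 passed the filter on low values, among 17110 genes listed for HL-60 and 17475 listed for MOLM-13. HL-60 and MOLM-13 are established human acute myeloid leukaemia cell lines. Each line was kept for 48 h with the solvent dimethyl sulfoxide (DMSO), with decitabine (DAC), an inhibitor of DNA methyltransferases, or with NTX-301, a compound of the same drug class known by its code name. Every group held 3 replicates, 18 samples in all, and the labels call them day 2 samples from cells plated in triplicate wells. The stated concentration is 30 nM where HL-60 was treated and 15 nM where MOLM-13 was, in wording that does not settle whether it also applies to NTX-301. Values of NTX-301 against DAC therefore compare samples whose doses may not match, line and stated concentration cannot be told apart, and the concentration of DMSO is not given in the sources used here.

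The phagocyte oxidase transfers electrons from NADPH across a membrane to oxygen and so makes superoxide, the start of the respiratory burst of neutrophils and macrophages. Its catalytic core, CYBB (gp91phox), sits in the membrane with its partner CYBA (p22phox), while cytosolic subunits such as NCF1 (p47phox) and NCF4 (p40phox) wait in the cytosol and join the core together with the GTPase RAC2 when the cell is stimulated. Inherited loss of CYBB, CYBA, NCF1 or NCF4 causes chronic granulomatous disease. In the myeloid lineage the oxidase genes are known to become more active as cells mature, and DMSO in high amounts is a classical inducer of granulocytic maturation of HL-60, so the solvent group is a control only at the amount used.

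Upstream sequences are shown for CYBB, NCF1 and CYBA, the 3 of 5 genes that the reference table used here held, because both drugs act on methylation of CG dinucleotides. CYBB and NCF1 are known as genes of maturing myeloid cells, and CYBA is expressed far more widely. Each line gives the 250 bases before the annotated start, 5′ to 3′ on the gene's own strand, from RefSeq on GRCh38.p14. The CYBB stretch is chrX:37779809-37780058 on the plus strand, the NCF1 stretch is chr7:74773761-74774010 on the plus strand and the CYBA stretch is chr16:88651054-88651303 on the minus strand. Capitals mark matches on either strand to GAGGAA, a core of sites of ETS factors such as PU.1, to an interferon regulatory factor element (a pair of GAAA boxes set 2 bases apart), and to GGGCGG, a box of SP factors.
CYBB: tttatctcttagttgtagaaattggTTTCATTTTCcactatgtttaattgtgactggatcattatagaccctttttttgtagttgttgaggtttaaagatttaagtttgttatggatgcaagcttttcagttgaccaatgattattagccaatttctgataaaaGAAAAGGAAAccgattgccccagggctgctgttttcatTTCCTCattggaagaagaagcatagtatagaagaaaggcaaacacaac
NCF1: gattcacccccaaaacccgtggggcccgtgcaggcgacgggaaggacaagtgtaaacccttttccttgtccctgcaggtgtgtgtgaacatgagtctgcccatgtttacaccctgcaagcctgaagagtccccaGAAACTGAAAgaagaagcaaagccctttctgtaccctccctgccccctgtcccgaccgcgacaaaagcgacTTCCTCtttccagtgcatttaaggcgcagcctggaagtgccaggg
CYBA: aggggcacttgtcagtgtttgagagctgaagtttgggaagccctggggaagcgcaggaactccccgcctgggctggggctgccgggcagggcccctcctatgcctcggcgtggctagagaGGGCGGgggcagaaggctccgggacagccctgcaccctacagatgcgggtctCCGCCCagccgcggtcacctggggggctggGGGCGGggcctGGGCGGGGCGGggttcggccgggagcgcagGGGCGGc
The CYBB stretch held 1 CG dinucleotide, the NCF1 stretch 9 and the CYBA stretch 18, beside a median of 11 over 35116 RefSeq promoters of the same length. CYBB held 1 GAGGAA match, whose first base lay 48 bases before the start, and 2 matches of the interferon regulatory factor element at 225 and 86 bases before it. NCF1 held 1 GAGGAA match at 45 bases and 1 match of that element at 116 bases. CYBA held neither and had 6 GGGCGG matches, of which those at 37 and 32 bases share a base. Of all 35116 promoters, 23.6% held GAGGAA, 3.0% held the interferon regulatory factor element and 42.6% held GGGCGG. A C/EBP motif, TTGCNNAA, was found in 9.1% of promoters and in none of these 3 windows. These are matches of letters, and no methylation or binding was measured.

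The deposited values are read here as expression levels on a log2 scale, so a difference of 1 is taken as a doubling. Fold levels rest on that reading, since the step that made the values is not given in the sources used here. The values are not taken to be per length, so levels are compared between groups of 1 line and not between genes. Since the lines carry separately made values, levels in both lines are only set side by side. Differences between groups were tested with limma over all genes of a line, with Benjamini-Hochberg adjustment, and a gene is said to have risen or fallen where the adjusted p was under 0.05. The median SD between replicates was 0.027 to 0.032 in HL-60 and 0.037 to 0.043 in MOLM-13, and no 2 samples held identical values. Of 13 myeloid markers 12 were listed in both lines, with CD14 absent from both lists. Some markers of other cell types were listed too. Of 10 lymphoid markers 2 were listed in HL-60 and 3 in MOLM-13. For 6 erythroid markers these counts were 0 and 3, and for 5 epithelial markers 1 and 2. CD3E, MS4A1 and EPCAM were among those listed in neither line. Both drugs were compared with the same DMSO samples, so the results for DAC and NTX-301 are not independent of each other.

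With DAC in HL-60, 1 of the 5 subunit genes passed the test, beside 24.2% of all 17046 genes tested (11.6% higher and 12.6% lower), and it was CYBB, which rose. With NTX-301 in HL-60, 4 of 5 passed, beside 37.4% of all genes (18.3% higher and 19.2% lower), with CYBB, NCF1 and NCF4 higher and CYBA lower. In MOLM-13 with DAC, 2 of 5 passed, beside 36.6% of 17475 genes (15.4% higher and 21.2% lower), namely CYBB and NCF1, and both rose. In MOLM-13 with NTX-301, 4 of 5 passed, beside 45.1% of all genes (20.3% higher and 24.8% lower): CYBB, NCF1 and RAC2 rose and CYBA fell. CYBB was thus the subunit gene that rose in all 4 comparisons with DMSO, and the other 4 genes did so in fewer or in none.

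Groups that do not overlap with the DMSO group were common over the whole table. With DAC in HL-60 this held for 2 of 5 subunit genes and 38.5% of all genes, and with NTX-301 for 4 of 5 and 47.2%. In MOLM-13 it held for 2 of 5 and 47.9% with DAC, and for 5 of 5 and 55.8% with NTX-301. The median log2 difference over the 5 genes in HL-60 was -0.042 with DAC and 0.10 with NTX-301. The MOLM-13 medians were 0.046 and 0.16, and the medians over all genes lay between 0.00064 and 0.0034 in these comparisons.

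Between the drugs in HL-60, 3 of 5 subunit genes passed, beside 30.4% of all genes (15.4% higher and 15.0% lower with NTX-301), with NCF1 and NCF4 higher and CYBA lower with NTX-301, and the drug groups did not overlap for these 3 genes, as for 44.4% of all genes. Between the drugs in MOLM-13, 1 of 5 passed, beside 7.42% of all genes (3.01% higher and 4.41% lower), and the groups did not overlap for 4 of 5, all but NCF4, beside 27.3% of all genes.

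**Figure D1:**
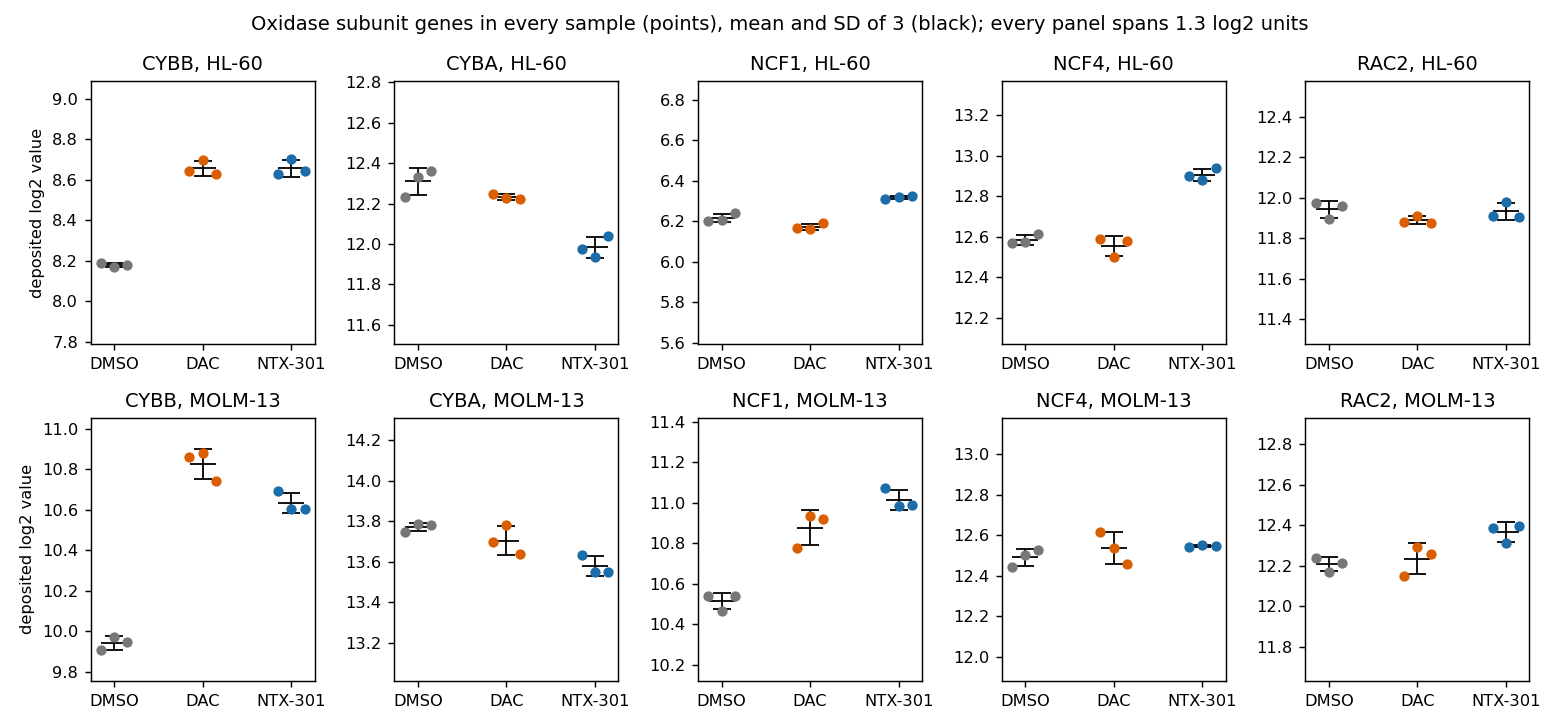
Deposited log2 values (vertical axis) of the 5 oxidase subunit genes in DMSO, DAC and NTX-301 samples of HL-60 (top) and MOLM-13 (bottom); points are samples, black bars are the mean and SD of 3, and all panels span the same range. CYBB lies above its DMSO samples with both drugs in both lines, while CYBA with NTX-301 lies below them.

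CYBB encodes the electron-transferring core of the enzyme. In HL-60 its log2 level was 8.19, 8.17 and 8.18 in the 3 DMSO samples, 8.65, 8.70 and 8.63 with DAC and 8.63, 8.71 and 8.64 with NTX-301. Both drug groups lay wholly above the DMSO group and overlapped each other. The log2 difference from DMSO was 0.48 with DAC (SE 0.037, adjusted p = 6.68e-07), a 1.39-fold level, and 0.48 with NTX-301 (SE 0.037, adjusted p = 2.47e-07). Ordered by difference, CYBB was number 102 from the top among 17046 genes with DAC and number 198 with NTX-301. The 2 drugs gave nearly the same mean, and the 95% interval of their difference ran from -0.079 to 0.080 (adjusted p = 0.995). A p that misses the threshold does not show that the drugs act alike.

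In MOLM-13 the CYBB log2 level was 9.91, 9.97 and 9.95 with DMSO, 10.86, 10.88 and 10.74 with DAC and 10.69, 10.60 and 10.60 with NTX-301. The 3 groups did not overlap, and their order was DMSO, NTX-301, DAC. CYBB rose by 0.89 with DAC (SE 0.044, adjusted p = 1.78e-07), a 1.85-fold level, while its NTX-301 rise was 0.69 (SE 0.044, adjusted p = 6.32e-07), a 1.62-fold level. Among 17475 genes it was number 9 from the top with DAC and number 44 with NTX-301. Between the drugs it was the subunit gene that passed: NTX-301 minus DAC was -0.19 (95% interval -0.29 to -0.098, adjusted p = 0.0225). That last call was lost when DAC replicate 1, DAC replicate 2, NTX-301 replicate 2 or NTX-301 replicate 3 was left out, with log2 differences between -0.18 and -0.17.

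CYBA encodes the membrane partner without which the core is unstable. Its log2 level in HL-60 was 12.23, 12.33 and 12.36 with DMSO, 12.25, 12.23 and 12.22 with DAC and 11.98, 11.94 and 12.04 with NTX-301. The DAC samples overlapped the DMSO samples, and every NTX-301 sample lay below both groups. CYBA fell by 0.33 with NTX-301 (SE 0.034, adjusted p = 3.86e-06), to 0.798 of the DMSO level, and NTX-301 minus DAC was -0.25 (adjusted p = 7.79e-05). The DAC difference of -0.077 did not pass (95% interval -0.15 to -0.0050, adjusted p = 0.115). It did pass without DMSO replicate 1, the lowest of its group, at -0.12.

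In MOLM-13 the CYBA log2 level was 13.75, 13.79 and 13.78 with DMSO, 13.70, 13.78 and 13.64 with DAC and 13.64, 13.55 and 13.55 with NTX-301. The NTX-301 samples were below all DMSO samples, and the highest of them lay just under the lowest DAC sample, both at 13.64 when rounded. CYBA fell by 0.19 with NTX-301 (SE 0.036, adjusted p = 0.000927), a change that was no longer called after quantile normalization, at -0.084. With DAC the difference of -0.068 did not pass (adjusted p = 0.164) and had the other sign, 0.027, after quantile normalization, but it was called lower after centring each sample on its median, at -0.10, and without DAC replicate 2, at -0.11. NTX-301 and DAC differed by -0.13 (95% interval -0.20 to -0.048, adjusted p = 0.0545), which missed the threshold. The membrane pair therefore moved in opposite directions with NTX-301 in the deposited values of both lines, CYBB up and CYBA down.

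NCF1 encodes the organizer that carries the cytosolic subunits to the membrane once it is phosphorylated. It stands next to near-identical copies, NCF1B and NCF1C, and how reads were divided among the 3 is not given in the sources used here, so its values are uncertain. In GENCODE 29, 41.6% of the 100-base stretches of the longest NCF1 transcript, of 2354 bases, also occur in a transcript of NCF1B or NCF1C. The log2 level of NCF1 in HL-60 was 6.20, 6.21 and 6.24 with DMSO, 6.17, 6.16 and 6.19 with DAC and 6.31, 6.32 and 6.33 with NTX-301. The 3 groups did not overlap, with DAC lowest and NTX-301 highest, but they lay within a narrow range. The NTX-301 rise of NCF1 was 0.10 (SE 0.028, adjusted p = 0.0103), while the DAC difference of -0.042 did not pass (adjusted p = 0.315). The NTX-301 level was 0.15 above the DAC level (SE 0.028, adjusted p = 0.00145).

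Values varied less at this low level: over the 9 HL-60 samples, genes with a mean log2 level of 5 to 7 had a median range of 0.14, and those of 8 to 10 a median range of 0.23. The rise of NCF1 with NTX-301 in HL-60 was lost after quantile normalization, at 0.054, and also when the linear values of NCF1, NCF1B and NCF1C were summed, at 0.075 (adjusted p = 0.0918). NCF1C, itself at 5.61 ± 0.027 (SD, n = 3) with DMSO, rose by 0.10 with NTX-301, and NCF1B differed by -0.020, which did not pass.

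In MOLM-13 the NCF1 log2 level was 10.54, 10.47 and 10.54 with DMSO, 10.78, 10.93 and 10.92 with DAC and 11.07, 10.99 and 10.99 with NTX-301. Again the groups did not overlap, and here both drug groups lay above DMSO. NCF1 rose by 0.36 with DAC (SE 0.045, adjusted p = 9.24e-05), a 1.29-fold level, and its NTX-301 rise was 0.50 (SE 0.045, adjusted p = 6.38e-06), a 1.41-fold level. The difference between the drugs, 0.14 (95% interval 0.038 to 0.24), missed the threshold (adjusted p = 0.0922), and its sign was the reverse of that of CYBB. The copies moved with NCF1: NCF1B rose by 0.34 with DAC and 0.45 with NTX-301, and NCF1C by 0.37 and 0.49. Summing the 3 left NCF1 called at 0.36 with DAC and 0.49 with NTX-301.

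**Figure D2:**
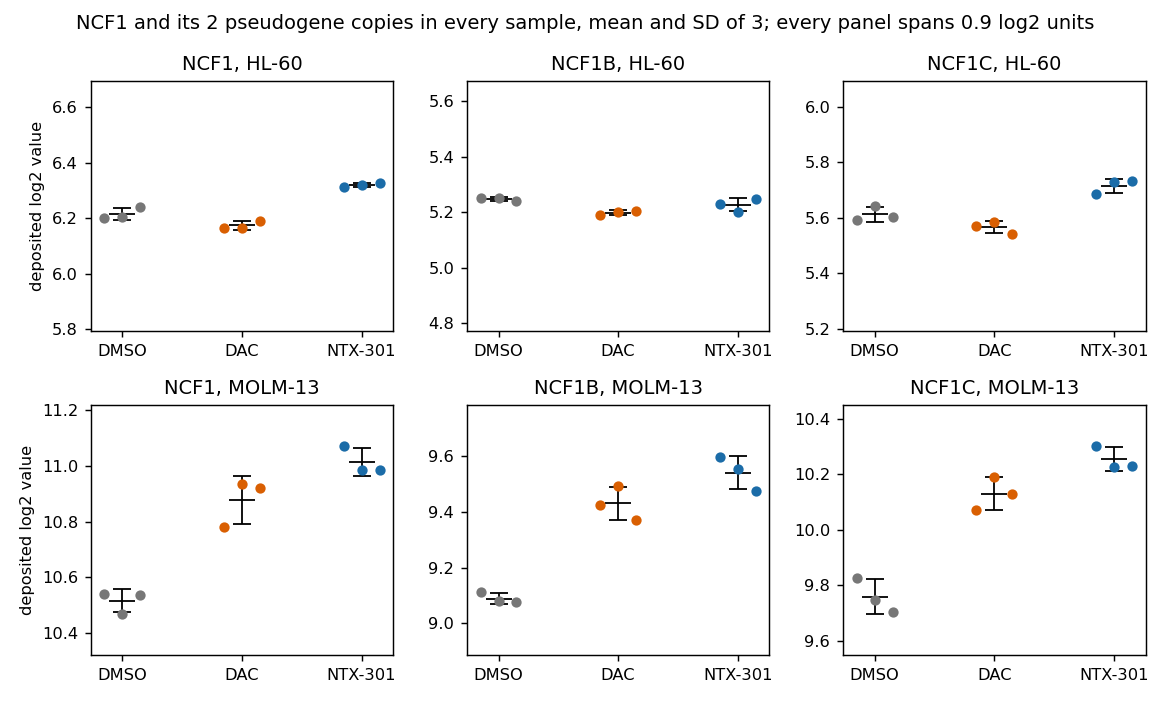
Deposited log2 values (vertical axis) of NCF1 and its copies NCF1B and NCF1C in each sample by drug, with HL-60 above and MOLM-13 below; black bars are the mean and SD of 3, and panels span equal ranges. In MOLM-13 all 3 genes lie above DMSO with both drugs, with the NTX-301 mean highest.

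NCF4 encodes a cytosolic subunit that binds a phosphoinositide of phagosome membranes and steadies the complex there. In HL-60 its log2 level was 12.57, 12.57 and 12.61 with DMSO, 12.59, 12.50 and 12.58 with DAC and 12.90, 12.88 and 12.94 with NTX-301. DMSO and DAC samples overlapped, and the NTX-301 samples all lay above them. The NTX-301 rise of NCF4 was 0.32 (SE 0.027, adjusted p = 5.98e-07), a 1.25-fold level, and NTX-301 minus DAC was 0.35 (SE 0.027, adjusted p = 5.12e-07). With DAC it differed from DMSO by -0.028 (95% interval -0.087 to 0.031, adjusted p = 0.502).

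In MOLM-13 the NCF4 log2 level was 12.45, 12.51 and 12.53 with DMSO, 12.62, 12.54 and 12.46 with DAC and 12.54, 12.55 and 12.55 with NTX-301. The DAC samples overlapped both other groups, and the NTX-301 samples lay close together, just above the DMSO samples. Neither difference passed, at 0.046 with DAC (95% interval -0.034 to 0.13, adjusted p = 0.357) and 0.055 with NTX-301 (95% interval -0.024 to 0.14, adjusted p = 0.239). After quantile normalization both were called higher, at 0.11 and 0.14.

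RAC2 encodes the GTPase of blood cells that switches the assembled enzyme on. Its log2 level in HL-60 was 11.97, 11.90 and 11.96 with DMSO, 11.88, 11.91 and 11.87 with DAC and 11.91, 11.98 and 11.91 with NTX-301, and all 3 groups overlapped. The differences from DMSO were -0.054 with DAC (95% interval -0.11 to 0.0066, adjusted p = 0.19) and -0.011 with NTX-301 (95% interval -0.071 to 0.049, adjusted p = 0.807). In MOLM-13 the level was 12.24, 12.17 and 12.21 with DMSO, 12.15, 12.29 and 12.26 with DAC and 12.39, 12.31 and 12.40 with NTX-301. The NTX-301 samples lay above all others, and the DAC samples overlapped the DMSO samples. The NTX-301 rise of RAC2 was 0.16 (SE 0.039, adjusted p = 0.00596), a 1.12-fold level, while the DAC difference of 0.026 did not pass (adjusted p = 0.645). NTX-301 and DAC differed by 0.13 (95% interval 0.047 to 0.22, adjusted p = 0.0629), which missed the threshold.

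**Figure D3:**
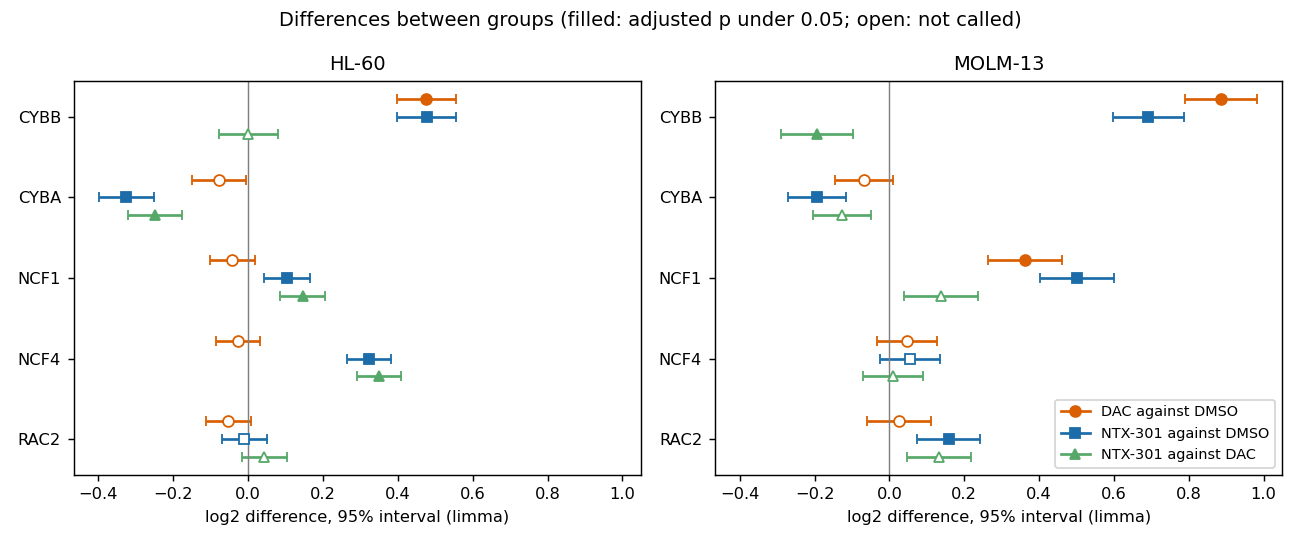
Log2 differences between groups (horizontal axis, limma, bars are 95% intervals) for the 5 subunit genes in HL-60 (left) and MOLM-13 (right); circles are DAC against DMSO, squares NTX-301 against DMSO and triangles NTX-301 against DAC, and filled marks have an adjusted p under 0.05. The CYBB marks against DMSO lie farthest to the right in both lines, at 0.48 for both drugs in HL-60, and at 0.89 for DAC and 0.69 for NTX-301 in MOLM-13.

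The drug effects were next compared between the lines, with the HL-60 difference from DMSO taken away from the MOLM-13 one, in 1 limma fit of all 18 samples with adjustment over 15474 genes. For DAC, 2 of 5 subunit genes passed, beside 30.0% of all genes (12.1% higher in MOLM-13 and 17.9% lower). CYBB rose by 0.41 more in MOLM-13 (SE 0.058, adjusted p = 2.82e-05) and the NCF1 difference was 0.41 higher there (SE 0.062, adjusted p = 6.10e-05). For NTX-301, 4 of 5 passed, beside 40.0% of all genes (17.6% higher and 22.4% lower). The MOLM-13 difference was higher by 0.21 for CYBB (adjusted p = 0.00603), by 0.40 for NCF1 (adjusted p = 4.54e-05) and by 0.17 for RAC2 (adjusted p = 0.0106), and the NCF4 value was -0.27 (adjusted p = 0.00018), a larger rise in HL-60. CYBA, at 0.13, missed the threshold (adjusted p = 0.0516), but it was called in 9 alternatives, among them quantile normalization (0.21, adjusted p = 0.0029), centring on the median (adjusted p = 0.0362), only the groups compared (adjusted p = 0.0454) and the filter at a mean linear value of 16 (adjusted p = 0.039). NCF1 lies at a low level in HL-60, where values varied less, and the part of that in its line difference was not tested.

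Side by side, with no test between lines, the DMSO level for CYBB was 8.18 ± 0.0093 in HL-60 beside 9.94 ± 0.032 in MOLM-13, and 12.31 ± 0.069 and 13.77 ± 0.021 for CYBA (mean ± SD, n = 3). It was 6.22 ± 0.021 and 10.51 ± 0.041 for NCF1, the widest gap of the 5 genes. For NCF4 it was 12.59 ± 0.026 and 12.49 ± 0.042, and for RAC2 11.94 ± 0.041 and 12.21 ± 0.035, which are close in both lines.

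CYBC1, a chaperone of the CYBB and CYBA pair, fell with NTX-301, by 0.12 in the HL-60 samples (adjusted p = 0.00214) and by 0.11 in the MOLM-13 samples (adjusted p = 0.00424), the latter not called after quantile normalization. RAC1, the widely expressed relative of RAC2, fell by 0.13 with NTX-301 in MOLM-13 (adjusted p = 0.00472), likewise not called after that normalization, while RAC2 rose there.

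Genes around the subunits are given next by counts, to be read beside the shares of all genes called, which were 24.2% with DAC and 37.4% with NTX-301 in HL-60, and 36.6% with DAC and 45.1% with NTX-301 in MOLM-13, where all genes leaned lower (21.2% lower against 15.4% higher with DAC, 24.8% against 20.3% with NTX-301). No list was tested as a whole, and several counts moved when 1 sample was left out. First, 8 further oxidase parts and assembly genes were tested in each line. In HL-60, 2 rose and 1 fell with DAC, and 3 rose and 2 fell with NTX-301, or 3 and 4 after centring. In MOLM-13, 2 rose and 3 fell with DAC, and 2 rose and 5 fell with NTX-301, or 2 and 0 and 2 and 2 after quantile normalization. The DAC count there became 2 and 1 without DMSO replicate 3 and 1 and 1 without DAC replicate 3. HVCN1, the proton channel that offsets the charge the oxidase moves, rose in HL-60 by 0.48 with DAC and 0.68 with NTX-301. It did not rise in MOLM-13, with mean log2 levels of 11.81 with DMSO, 11.72 with DAC and 11.71 with NTX-301. NRROS, which holds back the oxidase core, fell in HL-60 by 0.25 and 0.48. In MOLM-13 NRROS fell by 0.15 with DAC (adjusted p = 0.00895), which was not called after quantile normalization. Its mean log2 level there was 11.77 with NTX-301, below 11.95 with DMSO. Of the 12 tested genes that control Rac in HL-60, 1 rose and 5 fell with DAC and 2 rose and 6 fell with NTX-301, among them the exchange factor VAV1, which fell by 0.21 with DAC and by 0.21 with NTX-301. Of 13 in MOLM-13, 3 rose and 6 fell with DAC and 3 rose and 5 fell with NTX-301, and the Rac relative RAC3 fell by 0.36 and 0.44. After quantile normalization the MOLM-13 counts for Rac control were 4 higher and 3 lower with DAC and 4 and 2 with NTX-301.

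Of 15 kinase and lipid signalling genes that act on the oxidase, 0 rose and 4 fell with DAC in HL-60 (26.7% called, close to the 24.2% of all genes), and 2 rose and 9 fell with NTX-301 (73.3% called). PLCG2, a phospholipase upstream of protein kinase C, fell in HL-60 by 0.25 and 0.28 but rose in MOLM-13 by 0.15 with NTX-301 (adjusted p = 0.00135). PRKCB, a kinase that phosphorylates NCF1, rose in HL-60 by 0.41 with NTX-301. In MOLM-13, 5 rose and 5 fell with DAC and 3 rose and 4 fell with NTX-301, but the direction of this list depended on scaling there, with 9 higher and 0 lower, and 8 higher and 1 lower, after quantile normalization. Without DMSO replicate 2 the DAC count was 5 higher and 1 lower. Of the receptors that prime or trigger the burst, more were called higher than lower in the deposited values: 5 against 1 with DAC and 7 against 3 with NTX-301 of 13 in HL-60, and 4 against 1 and 3 against 2 of 8 in MOLM-13, where centring each sample on its median gave 3 against 3 with NTX-301 and leaving out DAC replicate 1 gave 3 against 0 with DAC. FCGR2A, an Fc receptor for IgG, rose in HL-60 by 0.37 and 0.45. P2RY2 of the same list fell in HL-60 by 0.32 with NTX-301 (adjusted p = 3.17e-08). TLR4 rose in HL-60 by 0.25 with DAC but fell with NTX-301, with a mean log2 level of 12.31 beside 12.50 with DMSO. In MOLM-13 the integrin chain ITGAM rose by 0.64 and 0.71 and the adaptor TYROBP by 0.54 and 0.61.

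Of transcription factors known at oxidase promoters, 1 rose and 3 fell with DAC and 3 rose and 5 fell with NTX-301 among 11 in HL-60. Among 14 in MOLM-13, 5 rose and 4 fell with DAC, or 3 and 4 after centring, and 5 rose and 2 fell with NTX-301, or 3 and 3 after centring and 9 and 2 after quantile normalization. SPI1 encodes PU.1, an activator of CYBB and NCF1, and it fell by 0.32 with NTX-301 in HL-60 (adjusted p = 3.33e-06), where both of those genes rose. In MOLM-13 SPI1 rose by 0.16 with DAC (adjusted p = 0.018), a call lost in 4 of the fits that left out a replicate. Its NTX-301 difference there of 0.11 did not pass. That difference was called higher after quantile normalization, at 0.18, and without DMSO replicate 1, at 0.16. It was also called with the filter at a mean linear value of 16, at 0.11. CUX1, a repressor of CYBB, fell in HL-60 by 0.31 with DAC and 0.26 with NTX-301. Its mean log2 level in MOLM-13 was 11.83 with DMSO, 11.80 with DAC and 11.91, the highest of these, with NTX-301. IRF8, an activator of CYBB that was listed in MOLM-13 only, fell by 0.22 and 0.46 while CYBB rose, and the granulocyte factor CEBPE rose by 0.66 and 0.30.

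Of 17 genes that handle superoxide and peroxide in HL-60, 4 rose and 2 fell with DAC, but 1 and 0 without DMSO replicate 2 and 1 and 2 without DAC replicate 1. With NTX-301, 3 rose and 5 fell. Of 18 in MOLM-13, 8 fell and 4 rose with DAC, and 12 fell and 3 rose with NTX-301 (66.7% lower beside 24.8% of all genes), or 5 against 5 and 10 against 4 after quantile normalization. The peroxiredoxin PRDX2 fell there by 0.22 and 0.36, and the mitochondrial superoxide dismutase SOD2 by 0.25 with NTX-301. Of 10 genes that supply NADPH, 3 rose and 0 fell with DAC in HL-60, and 1 rose and 5 fell with NTX-301. In MOLM-13, 1 rose and 4 fell with DAC and 1 rose and 6 fell with NTX-301. The DAC count there was 0 higher and 3 lower without DMSO replicate 3, DAC replicate 2 or DAC replicate 3, and 0 and 7 after centring. After quantile normalization the lower and higher counts were level at 2 each with NTX-301 in HL-60 and with DAC in MOLM-13, and 3 fell and 1 rose with NTX-301 in MOLM-13. TALDO1, of the pentose phosphate pathway, fell by 0.41 with NTX-301 in HL-60 and by 0.25 with the drug in MOLM-13.

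**Figure D4:**
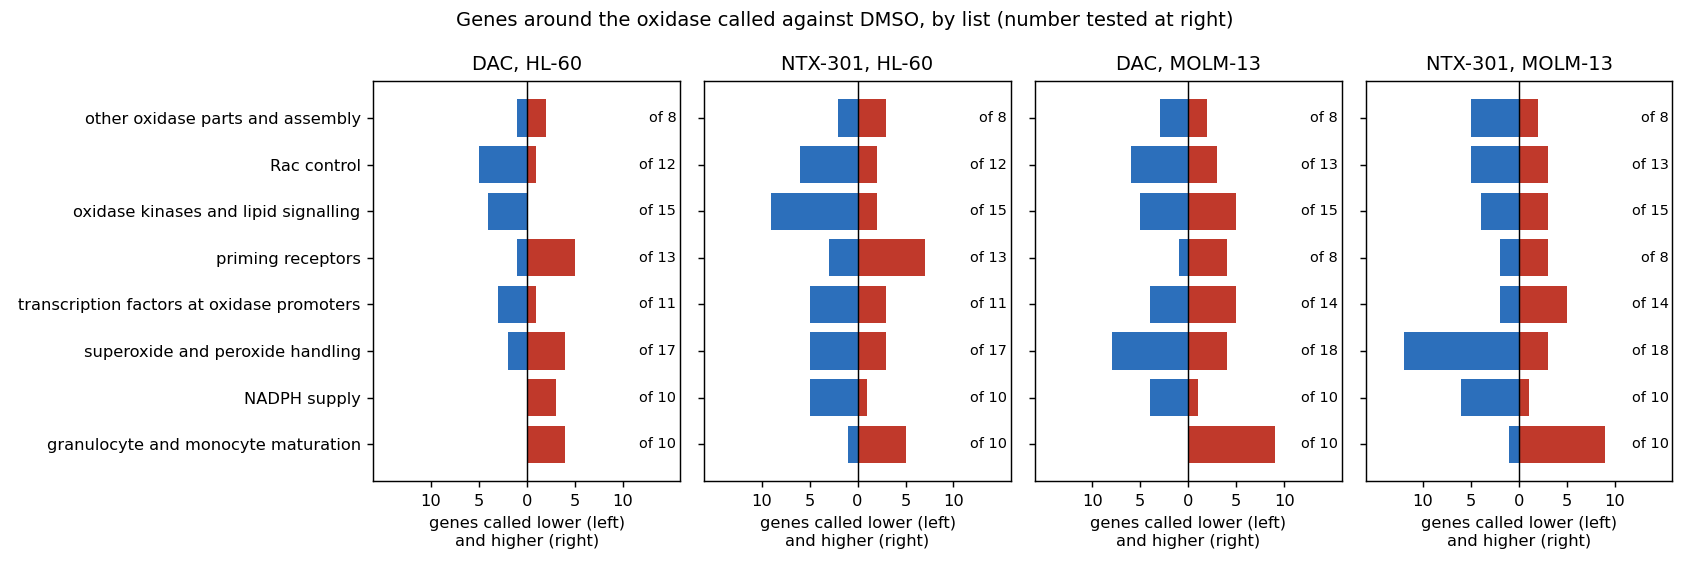
Number of genes called lower (bars to the left) and higher (bars to the right) against DMSO in 8 lists of genes around the oxidase, for each drug and line, with the number tested at the right of each bar. In the deposited values of MOLM-13 the maturation list has 9 of 10 genes higher with each drug, and the superoxide and peroxide list 12 of 18 lower with NTX-301.

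In MOLM-13, markers of granulocyte and monocyte maturation rose along with CYBB and NCF1. Of 18 such markers 10 were listed in each line, and CD14, CAMP, LTF, LCN2 and MMP9 were listed in neither. In MOLM-13, 9 rose and 0 fell with DAC and 9 rose and 1 fell with NTX-301, with list medians of 0.58 and 0.30. After quantile normalization 7 were higher and 0 lower with NTX-301, and 9 and 0 with DAC. The log2 of the summed linear values of these markers was 16.67 to 16.74 with DMSO, 17.40 to 17.51 with DAC and 16.83 to 16.90 with NTX-301, but LYZ, the lysozyme gene, made up 82.5% to 88.1% of it. Without LYZ the sums were 14.01 to 14.06 with DMSO, 14.41 to 14.45 with DAC and 14.28 to 14.35 with NTX-301, the order of groups seen for CYBB. The integrin chain ITGAM did not have that order, with means of 10.73 with DAC and 10.80 with NTX-301. In HL-60, 4 rose and 0 fell with DAC and 5 rose and 1 fell with NTX-301, with medians of 0.079 and 0.096, and the sums ran from 14.04 to 14.10 with DMSO, 14.22 to 14.26 with DAC and 14.10 to 14.18 with NTX-301. Without LYZ the HL-60 sums were 13.54 to 13.62 with DMSO, 13.69 to 13.73 with DAC and 13.66 to 13.75 with NTX-301. The drug groups then overlapped. NCF1 was not called with DAC in HL-60, where those 4 markers rose. The list of general myeloid markers went the other way with NTX-301 in HL-60, with 3 higher and 7 lower of 12 and a median of -0.11, and its primary granule genes MPO, ELANE and PRTN3, named here after their values were seen, as was LYZ, fell by 0.35, 0.48 and 0.76. With DAC in HL-60 that list had 2 higher and 3 lower, and in MOLM-13 it had 8 higher and 0 lower with DAC and 6 higher and 1 lower with NTX-301. Its log2 sums were 19.08 to 19.16 with DMSO, 19.07 with DAC and 18.72 to 18.76 with NTX-301 in HL-60, and in MOLM-13 they were 18.35 to 18.37, 18.71 to 18.74 and 18.38 to 18.48. The HL-60 sum was mostly MPO, whose mean linear value was 427553 with DMSO and 335577 with NTX-301. Group means of the whole sum ran from 438353 to 567372 in that line. Of 10 lymphoid markers 2 were listed for HL-60, 3 were listed for MOLM-13, and their sum was mostly that of CD4, which monocytes also express. In these bulk samples more cells of a mature type and more RNA per cell cannot be told apart, and the part of maturation in the subunit results was not tested.

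The genes most like each subunit gene were found by Pearson r over the 9 samples of a line, which are 3 groups of 3 and share their normalization, so r is a description here. Candidates had a mean linear value of at least 5 and a log2 range of at least 0.3, and numbered 2344 in HL-60 while MOLM-13 had 4663. CYBB was most like HIPK2 (r = 0.998), CR1 (r = 0.997) and ACSL1 (r = 0.996) in HL-60, and most like HLA-DRA (r = 0.998), MAN2B1 (r = 0.997) and PSAP (r = 0.996) in MOLM-13. CYBA was most like SDF2L1 in HL-60 (r = 0.990) and TSEN54 in MOLM-13 (r = 0.983), with the respiratory chain genes NDUFAB1 and NDUFB10 following in MOLM-13. NCF1 was most like MOV10 in HL-60 (r = 0.989) and CMBL in MOLM-13 (r = 0.989). NCF4 was most like WT1-AS in HL-60 (r = 0.991) and RAD51L3-RFFL in MOLM-13 (r = 0.887). RAC2 had the weakest best match in HL-60, MPZL3 (r = 0.809), and TBC1D10A in MOLM-13 (r = 0.950).

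Among the subunit genes themselves, NCF1 and NCF4 were alike in HL-60 (r = 0.963) and less so in MOLM-13 (r = 0.350). CYBB and NCF1 were alike in MOLM-13 (r = 0.855) and less so in HL-60 (r = 0.226). CYBA ran against CYBB in both lines (r = -0.665 in HL-60, r = -0.493 in MOLM-13). No test of the difference between these values was made.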

How the data were processed

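Stranded total RNA libraries of 18 cell line samples were measured, in 6 groups of 3. The authors deposited 1 log2 expression value per gene and sample; that scale is read from the values, and the step that made them is not given in the sources used here. Per the submitters' processing notes, FastQC, Trimmomatic 0.38, HISAT2 and StringTie were used with build hg19, with roles and order not stated. The files hold no counts, so the depth of each sample is unknown, and precision was taken from the replicates. Coordinates printed are from RefSeq on GRCh38.p14, not hg19.

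Genes whose linear value (the antilog of the deposited log2 value) reached 1 or more in 3 or more samples of a line entered limma 3.58.1 (R 4.3.3): 1 mean per group, the 9 samples of a line in 1 fit, 6 residual degrees of freedom, a mean-variance trend, two-sided, and Benjamini-Hochberg adjustment across every gene tested, called at 0.05. No pseudocount was added. The line difference used 1 fit of 18 samples. The procedure was tested on simulated data. The labels do not say that replicates came from separate cultures beyond triplicate wells, so p-values measure only the spread between these samples.

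The members and gene lists were chosen with earlier results of these data known. All 5 members are named in each contrast, along with CYBC1, RAC1, NCF1B, NCF1C, SPI1 and IRF8. From each oxidase list the genes with the 2 lowest adjusted p-values per line and drug contrast could be named (some genes under this rule are not reported here), and 3 most alike genes per member and line, among those with a mean linear value of at least 5 and a log2 range of at least 0.3. Lists are described by counts and medians, without a set test. Alternatives were centring on the sample median, quantile normalization, no trend, other filters, a pseudocount of 16, only the groups compared, a replicate block and each replicate left out. Summing NCF1 with its copies, the maturation sum without LYZ, and the list counts under each alternative, were added after seeing the data. Upstream sequences were given for 3 of 5 members.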

Additional observations from a re-analysis of the deposited data

Results flagged for a closer look

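Of the 10 drug effects of the 5 subunit genes compared between the lines, 6 differed by the limma test of the difference itself, taken as MOLM-13 minus HL-60. With DAC the values were 0.41 for CYBB and 0.41 for NCF1. With NTX-301 they were 0.21 for CYBB, 0.40 for NCF1, 0.17 for RAC2 and -0.27 for NCF4, the last a larger rise in HL-60. Replicates agreed in direction for CYBB, since in both lines each drug-treated sample was above all 3 DMSO samples. Line and stated concentration cannot be told apart in these 6 values.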

How the results depend on the processing

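Over the 40 log2 differences of the 5 subunit genes (8 contrasts each), 778 alternative values were computed: 730 kept direction and side of the threshold, 7 lost a call, 23 gained one and 18 changed sign. Of the 21 called differences, 18 stayed called under every alternative run. Those that did not were NCF1 with NTX-301 in HL-60, CYBA with NTX-301 in MOLM-13 and CYBB between the drugs in MOLM-13.

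With DAC against DMSO in HL-60, leaving out each replicate gave 1 to 2 members called, with 2 without DMSO replicate 1. For NTX-301 against DAC in MOLM-13 the 1 member called became 3 after centring on the median and 3 with a mean linear value of at least 16, and 0 to 2 when a replicate was left out: 0 without DAC replicate 1, NTX-301 replicate 2 or NTX-301 replicate 3, and 2 without DAC replicate 3 or NTX-301 replicate 1. The cause was not tested.

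The sign changes were all in differences that did not pass. Quantile normalization gave 0.0095 for RAC2 with NTX-301 in HL-60, -0.032 for CYBB between the drugs in HL-60, 0.027 for CYBA with DAC in MOLM-13, 0.0017 for RAC1 with DAC in HL-60 and 0.021 for CYBC1 with DAC in MOLM-13. Centring gave -0.028 for CYBB between the drugs in HL-60, -0.011 for RAC2 with DAC in MOLM-13 and -0.028 for CYBA in the DAC line difference. Leaving out replicates gave -0.045 to 0.00044 for NCF4 (DAC against DMSO in HL-60), -0.034 to 0.0037 for RAC2 (NTX-301 against DMSO in HL-60), -0.023 to 0.021 for CYBB (NTX-301 against DAC in HL-60), -0.0041 to 0.069 for RAC2 (DAC against DMSO in MOLM-13), -0.030 to 0.049 for NCF4 (NTX-301 against DAC in MOLM-13), -0.028 to 0.049 for CYBA (the DAC line difference) and -0.018 to 0.0077 for RAC1 (DAC against DMSO in HL-60). The cause was not tested.

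Over all genes, centring gave 2310 higher and 5400 lower with NTX-301 in HL-60 where the deposited scale gave 3115 and 3265, 1960 and 5731 with DAC in MOLM-13 (2689 and 3705), 2735 and 5760 with NTX-301 in MOLM-13 (3543 and 4337), 1818 and 4860 between the drugs in HL-60 (2622 and 2563) and 1359 and 4382 in the DAC line difference (1871 and 2767). Genes called between the drugs in MOLM-13 numbered 1297, and 462 to 1322 when a replicate was left out (462 without NTX-301 replicate 3, 479 without NTX-301 replicate 2 and 767 without DAC replicate 1). A fit with the replicate block gave 817 there and changed no member call. Same-numbered samples deviated together with r from -0.057 to 0.12 in HL-60 and -0.16 to 0.11 in MOLM-13, and 8 of 18 and 3 of 18 matched best with their own number, so the numbers were not taken as pairs. No depth is known, so no limit from depth can be given.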
